A study of Saccharomyces cerevisiae with 6 samples.

Results

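The genes that drive meiosis and spore formation in budding yeast were compared between the nab2-1 mutant and a wild type strain. The 47 genes were chosen by role from general knowledge, as regulators of meiosis, recombination genes and genes of spore formation. Earlier results of these data were known when they were chosen. Each was measured by 1 probe set, and together they make up 47 of the 5449 genes tested. They were grouped as 4 regulators, 21 early genes, 16 middle genes, 4 late genes and 2 phospholipase genes that were not placed in a time class.

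Nab2 is a poly(A)-binding protein of the nucleus that yeast needs to live, with a part in mRNA export. Expression had been measured on Affymetrix arrays, with 1 array for each of 3 nab2-1 and 3 wild type samples. The wild type group was strain W303-1A. The mutant group had the same background, with the chromosomal NAB2 gene deleted and marked by HIS3 (nab2∆HIS3) and the nab2-1 allele carried on a centromeric LEU2 plasmid (CEN LEU2). Both groups were grown in YPD rich medium at 30 °C to exponential phase, with no agent added. The wild type is not described as carrying a plasmid, so the allele, the plasmid and both markers differ together between the groups and cannot be told apart. No label says that the 3 samples of a group were grown as separate cultures. The p-values therefore reflect the spread among these arrays alone, and that spread may be technical.

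In growing haploid cells, meiotic genes are normally kept silent. Ume6, bound upstream of early genes, recruits histone deacetylases to them, and the activator Ime1 turns the same promoters on when diploid cells starve. Ime1 and the kinase Ime2 lead to expression of the early genes of chromosome pairing and recombination, after which Ndt80 turns on the middle genes of the meiotic divisions and spore formation, and the late genes of spore wall maturation follow. RME1, which is expressed in haploid cells, encodes a repressor of IME1.

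Each difference is given on the log2 scale with its SE from limma (n = 3 arrays per group), positive where the signal was higher in nab2-1. A gene is called higher or lower at an adjusted p under 0.05 over all genes tested. Array values are deposited log2 signals, listed in the order of replicates 1, 2 and 3.

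Arrays of a group correlated at 0.994 to 0.998 and arrays of different groups at 0.94 to 0.947 (Pearson, across the tested genes). The array also carries 1746 probe sets of another yeast, Schizosaccharomyces pombe, which have no target here. Their 95th percentile, called the other-species level, was 4.25 to 4.28 on the nab2-1 arrays and 4.31 to 4.35 on those of the wild type. Genes of chromosomes I, XI and XVI had median differences of 0.73, 0.77 and 0.75, while those of the other 13 chromosomes lay between -0.14 and -0.08. Of the 47 genes, REC8, SPO19 and SMK1 lie on XVI and SPO14 on XI, and their values relative to the chromosome median are given beside their own. With the arrays scaled to spiked poly(A) controls, the median over all genes moved from -0.05 to 0.22. The mean signal of those controls itself varied among the wild type arrays, at 7.38, 7.22 and 7.59 on replicates 1, 2 and 3. That scaling subtracts 1 value per array from every gene, so its error is shared by all genes. Calls gained or lost on that scale are therefore not separate evidence for each gene.

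The mating type of the cells was checked with marker genes. W303-1A is a MATa haploid strain, but the 4 MATalpha-specific genes were bright on all 6 arrays. STE3, the a-factor receptor gene of MATalpha cells, lay at 12.90, 12.81 and 12.86 in nab2-1 and at 12.45, 12.38 and 12.49 in the wild type, and the alpha-factor gene MF(ALPHA)1 lay at 14.15, 14.14 and 14.10 against 13.90, 13.86 and 13.96. On every array these values were above the median of the tested genes, 10.27 to 10.30, so the data of both groups go against the mating type of W303-1A. As deposited 3 of the 4 MATalpha-specific genes were higher, and SAG1 was lower (-0.18 ± 0.04, adjusted p = 0.0084). Relative to chromosome medians 1 was higher and 2 lower. The lower ones were STE3 on XI (-0.34, adjusted p = 0.00094) and MF(ALPHA)1 on XVI (-0.53, adjusted p = 8.7e-05). The 7 MATa-specific genes were above the other-species level on every array and all 7 were higher in nab2-1, with a median difference of 1.53. Of 11 haploid-specific genes, all were above that level on every array, 4 were higher and 3 were lower (5 and 1 when scaled to the spiked controls), and HO, the mating-type switching endonuclease gene, fell by 2.37 ± 0.06 (adjusted p = 4.4e-07). The part of these differences in the meiotic results was not tested.

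Of the 47 meiosis and sporulation genes, 28 were higher and 5 lower in nab2-1, and 14 did not pass the threshold. The samples are bulk cultures, in which fewer cells of a type and less RNA per cell cannot be told apart. The calls make up 59.6% higher and 10.6% lower, against 30.2% higher and 37.2% lower among all genes tested. The list was chosen with earlier results of these data known, so no test of these shares was made. At least 2-fold changes were seen for 12 genes that rose and 2 that fell, where the background was 5.91% and 3.96%. The median difference over the 47 genes was 0.62, beside -0.05 over all genes, and it was 0.64 over the 45 genes above the other-species level in at least 1 group, with SPR28 at its bound. The 3 nab2-1 arrays all lay above the 3 wild type arrays for 28 genes and all below for 5, against 32.8% and 41.1% of all genes. The 43 genes off chromosomes I, XI and XVI held 24 higher and 5 lower genes, where 19.8% and 43.2% of the genes on the other 13 chromosomes were called. Relative to chromosome medians, 29 of the 47 were higher and 6 lower, beside 29.6% and 31.8% of all genes. Counts differed with the scaling, as 33 were higher and 2 lower when scaled to the spiked controls (median 0.89) and 26 were higher and 8 lower after quantile normalization (median 0.40).

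**Figure D1:**
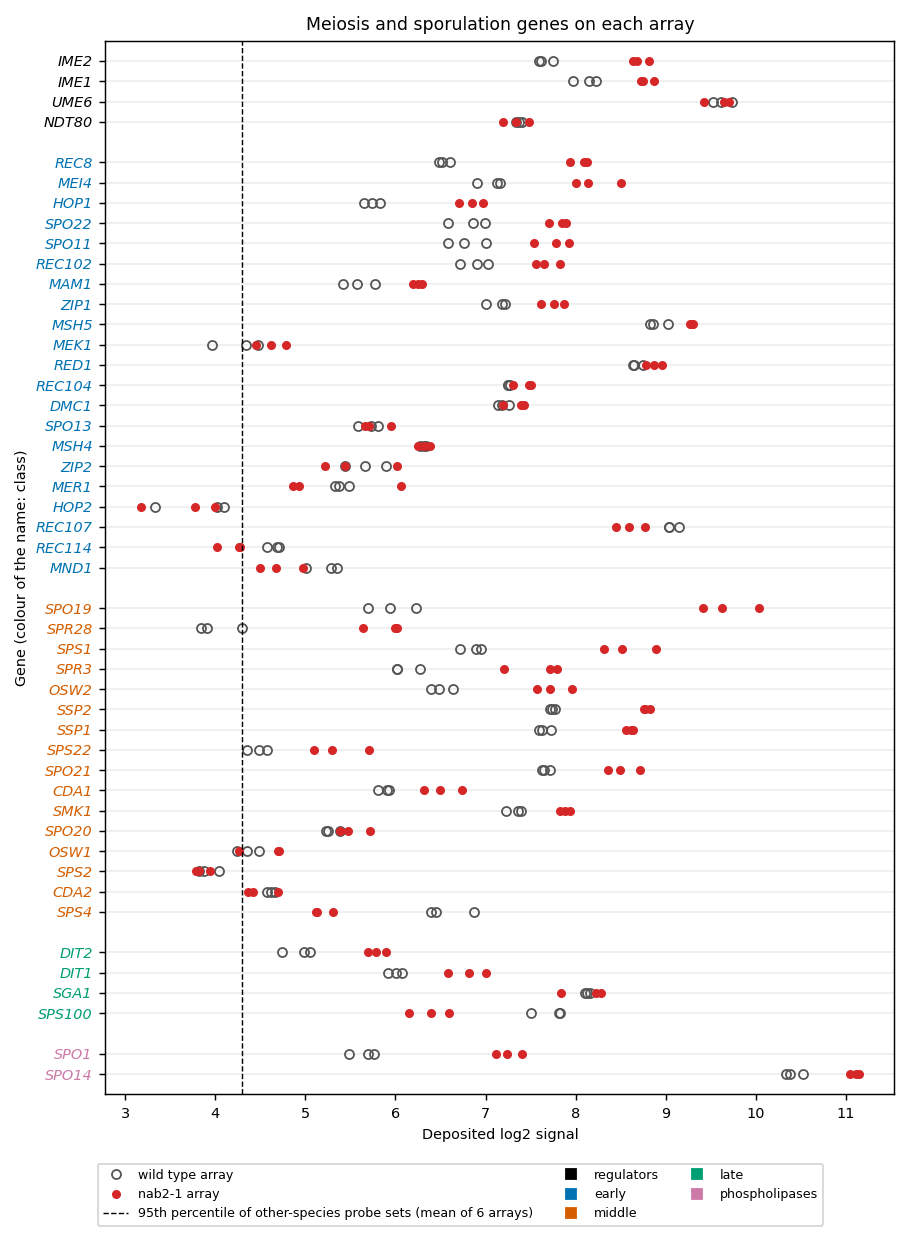
Deposited log2 signal (x axis) of each meiosis and sporulation gene (y axis) on the 3 nab2-1 arrays (filled) and the 3 wild type arrays (open), ordered within each class by the difference; the dashed line marks the other-species level. The nab2-1 arrays all lie to the right of the wild type arrays for 28 genes and all to the left for 5.

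Most of these genes were dim. All but 2, UME6 and SPO14, lay in the dimmest 25% of the genes tested, those with a mean log2 signal up to 9.29. In that dim range 27 of the 45 genes were higher (60%) and 5 lower (11.1%), against 32.6% and 34% of all 1363 genes there, whose median difference was -0.02. The 47 genes had a median signal percentile of 6, against 12.5 for the genes of the dimmest 25%, so this comparison is not matched on signal. On at least 1 array 7 genes were at or under the other-species level (HOP2, MEK1, REC114, SPS2, SPS22, SPR28 and OSW1). HOP2 and SPS2 were at or under it on all 6 arrays, so no fold is given for them. The other-species probe sets themselves had array medians of 3.37 to 3.38 for nab2-1 and of 3.40 for the wild type. Over all 10928 probe sets the array medians were 7.09 to 7.14 for nab2-1 and 6.81 to 6.88 for the wild type. The part of that shift in the rises of the dim genes was not tested.

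**Figure D2:**
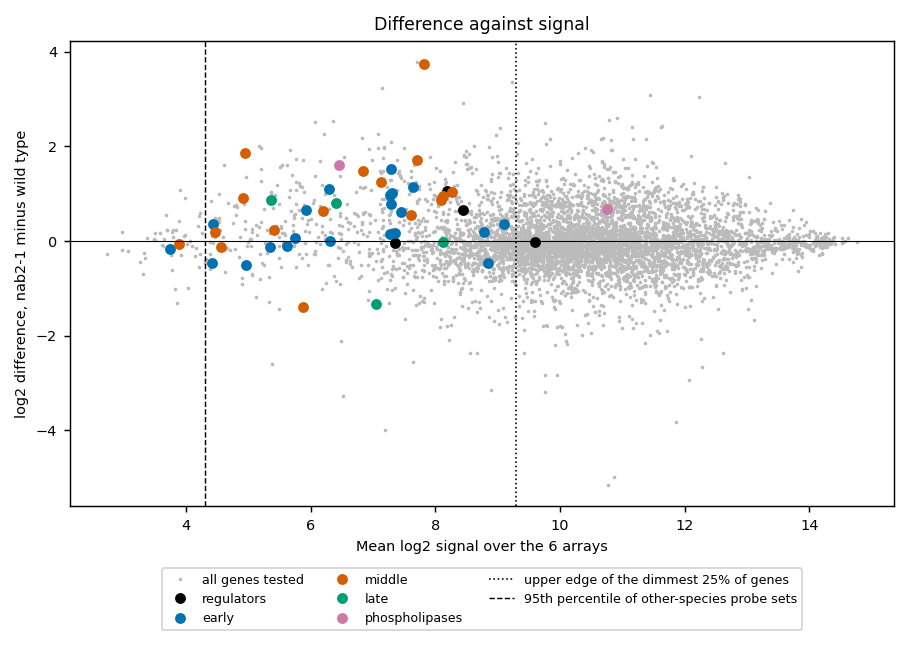
Difference between the groups (y axis, log2, nab2-1 minus wild type) against the mean log2 signal over the 6 arrays (x axis), with all tested genes in grey and the meiosis and sporulation genes coloured by class. The vertical lines mark the other-species level and the upper edge of the dimmest 25% of genes at 9.29, and 45 of the 47 genes lie left of the latter, 27 of them higher and 5 lower in nab2-1.

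Of the 4 regulators, those at the entry to meiosis were higher and the other 2 did not pass the threshold, where 30.2% of all genes were higher. IME1, the transcription factor gene that starts the programme, lay at 8.73, 8.75 and 8.87 in nab2-1 and at 8.23, 8.15 and 7.97 in the wild type. The groups did not overlap, and IME1 rose by 0.66 ± 0.08, or 1.58-fold (adjusted p = 0.0002). IME2, the kinase gene that Ime1 activates, lay at 8.64, 8.68 and 8.81 against 7.62, 7.59 and 7.75, a rise of 1.06 ± 0.07, or 2.08-fold (adjusted p = 9.2e-06). Every nab2-1 value of IME2 was above every wild type value.

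NDT80, the activator gene of the middle genes, lay at 7.34, 7.19 and 7.48 in nab2-1 and at 7.37, 7.41 and 7.34 in the wild type, so the groups overlapped. Its difference was -0.04 ± 0.08 (adjusted p = 0.66), and it was 0.23 when scaled to the spiked controls. UME6, whose product binds early promoters, lay at 9.42, 9.65 and 9.70 against 9.52, 9.74 and 9.61, also with overlap. Its difference was -0.03 ± 0.09 (adjusted p = 0.75), or 0.08 relative to its chromosome and 0.24 when scaled to the spiked controls. For both genes the sign depended on the scaling.

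Of the 21 early genes, 11 were higher, 3 lower and 7 not called, with a median difference of 0.19. The shares over all genes were 30.2% higher and 37.2% lower. REC8, the gene of the meiotic cohesin subunit, lay at 8.13, 7.94 and 8.09 in nab2-1 and at 6.48, 6.61 and 6.52 in the wild type. It rose by 1.52 ± 0.07, or 2.86-fold (adjusted p = 2.4e-06), and was 0.77 higher relative to the median of chromosome XVI (adjusted p = 6.9e-05). Its groups were far apart compared with their SDs of 0.10 and 0.07.

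The genes that make meiotic double-strand breaks did not move together. SPO11, which encodes the enzyme that cuts the DNA, lay at 7.54, 7.78 and 7.93 in nab2-1 and at 6.58, 7.0 and 6.76 in the wild type, and rose by 0.97 ± 0.13 (adjusted p = 0.00038). MEI4, a gene of a chromosome-bound complex needed for the breaks, lay at 8.14, 8.0 and 8.50 against 7.13, 6.91 and 7.16, and rose by 1.15 ± 0.13 (adjusted p = 0.00018). REC102, whose product forms a core complex with Spo11, lay at 7.56, 7.65 and 7.83 against 6.72, 6.90 and 7.03, and rose by 0.79 ± 0.10 (adjusted p = 0.00026). In all 3 of these genes the groups were separate. REC114 and REC107, whose products act with Mei4, fell by 0.47 ± 0.08 (adjusted p = 0.0014) and by 0.47 ± 0.09 (adjusted p = 0.0018). REC114 was at or under the other-species level on 2 of the 3 nab2-1 arrays. Scaled to the spiked controls both genes were at -0.20 and no longer called. Their SEs widened to 0.15 on that scale, as for every other gene given here with an SE on it. The part of the wider SEs in the lost calls was not tested. REC104, the partner gene of REC102, rose by 0.18 ± 0.06 (adjusted p = 0.036), and that call was lost without any 1 array other than nab2-1 replicate 1 (adjusted p = 0.072 to 0.11). Its call was also lost under quantile normalization (0.01) and cyclic loess (0.09).

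Of these genes of the chromosome axis and of synapsis, HOP1, SPO22, ZIP1 and RED1 were called higher, and MEK1 and ZIP2 were not called. HOP1, an axis protein gene, lay at 6.97, 6.71 and 6.85 in nab2-1 and at 5.83, 5.74 and 5.65 in the wild type, and rose by 1.10 ± 0.08, or 2.15-fold (adjusted p = 1.8e-05). SPO22, also known as ZIP4 and needed for synapsis, lay at 7.89, 7.70 and 7.85 against 6.58, 6.86 and 6.99, and rose by 1.01 ± 0.11 (adjusted p = 0.00012). Neither gene's groups overlapped. ZIP1, the gene of the central protein of the synaptonemal complex, rose by 0.62 ± 0.08 (adjusted p = 0.0004), and RED1, the axis partner of HOP1, by 0.19 ± 0.06 (adjusted p = 0.03). The RED1 call was lost without nab2-1 replicate 2 or 3 or wild type replicate 1 or 2 (adjusted p = 0.075 to 0.098). MEK1, the kinase gene of the axis, had a difference of 0.36 ± 0.14 (adjusted p = 0.055), and 2 of its 3 wild type values were at or under the other-species level. It was called without nab2-1 replicate 2 (0.44, adjusted p = 0.045) and without wild type replicate 2 (0.47, adjusted p = 0.026). ZIP2, which acts with Zip4, had overlapping groups and a difference of -0.11 ± 0.21 (adjusted p = 0.66).

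Among the genes that act after the breaks, the direction varied. MSH5, a gene of the MutS-like pair that promotes crossovers, rose by 0.37 ± 0.06 (adjusted p = 0.0013), while its partner gene MSH4 had a difference of 0.01 ± 0.05 (adjusted p = 0.86). MND1, whose product assists the recombinase Dmc1, fell by 0.50 ± 0.13 (adjusted p = 0.012), a call that was lost when scaled to the spiked controls (-0.23 ± 0.15). DMC1 itself had a difference of 0.14 ± 0.07 (adjusted p = 0.13) and was called higher without nab2-1 replicate 1 (0.22, adjusted p = 0.012). HOP2, the partner gene of MND1, had no signal above the other-species level. The differences between the partner genes were not tested.

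Of the remaining early genes, MAM1, a gene of the monopolin complex that orients sister kinetochores together, rose by 0.66 ± 0.09 (adjusted p = 0.00039), but by 0.25 after quantile normalization, where it was not called (adjusted p = 0.076). SPO13, which acts in meiosis I segregation, had a difference of 0.06 ± 0.09 (adjusted p = 0.57). SPO13 and MSH4 were called lower after quantile normalization, at -0.31 (adjusted p = 0.015) and -0.32 (adjusted p = 0.0038). MER1, a gene of meiotic splicing, lay at 6.06, 4.93 and 4.86 in nab2-1 and at 5.37, 5.49 and 5.33 in the wild type. Its nab2-1 replicate 1 was above all wild type values and the other two were below them. Its difference was -0.12 ± 0.29 (adjusted p = 0.74), and without that array it was -0.50 (adjusted p = 0.00064).

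Of the 16 middle genes, 11 were higher, 1 was lower and 4 were not called, with a median difference of 0.88. The shares over all genes were 30.2% higher and 37.2% lower. SPO19, a sporulation gene for a GPI-anchored protein, lay at 9.41, 9.62 and 10.03 in nab2-1 and at 5.70, 6.23 and 5.94 in the wild type. It rose by 3.73 ± 0.18, or 13.3-fold (adjusted p = 3.4e-06), the largest rise among the 47 genes, and was 2.98 higher relative to the median of chromosome XVI (adjusted p = 1.5e-05). The lowest nab2-1 value exceeded the highest wild type value by far more than the SDs of 0.31 and 0.27.

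Both sporulation septin genes were higher, septins being filament proteins that line the growing spore membrane. SPR28 lay at 6.0, 6.02 and 5.64 in nab2-1 and at 3.91, 4.30 and 3.84 in the wild type, where all 3 values were at or under the other-species level. It was at least 2.93-fold higher in nab2-1, taking that level as the wild type value (adjusted p = 2.5e-05). SPR3 lay at 7.21, 7.72 and 7.79 against 6.02, 6.27 and 6.02, and rose by 1.47 ± 0.16, or 2.77-fold (adjusted p = 0.00011). The groups were separate for both genes.

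Of 3 genes that build the spore membrane and its scaffold on the spindle pole, SPO21 and SSP1 were higher and SPO20 was not called. SPO21, a gene of the meiotic spindle pole plaque, rose by 0.86 ± 0.09 (adjusted p = 9.8e-05), and SSP1, whose product coats the leading edge of the membrane, rose by 0.95 ± 0.05 (adjusted p = 6.5e-06). SPO20, a t-SNARE gene of that membrane, had a difference of 0.23 ± 0.09 (adjusted p = 0.058) and was called without nab2-1 replicate 1 (0.31, adjusted p = 0.022). It was also called relative to its chromosome median (0.38, adjusted p = 0.01), and after quantile normalization its sign turned (-0.11, adjusted p = 0.37).

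The kinase genes of spore wall formation were higher as deposited. SPS1, for a kinase of the Ste20 family, lay at 8.31, 8.51 and 8.89 in nab2-1 and at 6.95, 6.89 and 6.72 in the wild type, and rose by 1.72 ± 0.14, or 3.29-fold (adjusted p = 3.4e-05). SSP2, whose product activates the kinase Smk1, rose by 1.04 ± 0.04 (adjusted p = 2.3e-06), from 7.74 ± 0.03 to 8.78 ± 0.03 (SD). SMK1 rose by 0.56 ± 0.06 (adjusted p = 0.00012) as deposited but was lower relative to the median of chromosome XVI, at -0.19 (adjusted p = 0.026). Its direction thus differed between the deposited scale and the chromosome scale, while SPS1 and SSP2 were called higher on both.

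Genes of the spore wall itself split. OSW2, needed for the outer spore wall, lay at 7.57, 7.71 and 7.96 in nab2-1 and at 6.48, 6.64 and 6.40 in the wild type, and rose by 1.24 ± 0.11, or 2.36-fold (adjusted p = 4.1e-05). CDA1, a chitin deacetylase gene, rose by 0.64 ± 0.10 (adjusted p = 0.0011), and SPS22, which acts in making the glucan layer, by 0.90 ± 0.15 (adjusted p = 0.0011). Those 3 genes had separate groups. The second deacetylase gene, CDA2, had a difference of -0.13 ± 0.09 (adjusted p = 0.26), and OSW1 had one of 0.20 ± 0.13 (adjusted p = 0.22). Without nab2-1 replicate 1 both were called, CDA2 at -0.23 (adjusted p = 0.0072) and OSW1 at 0.35 (adjusted p = 0.0076). SPS2, the paralog of SPS22, had no signal above the other-species level. SPS4, a sporulation-induced gene, was the only middle gene called lower as deposited. It lay at 5.13, 5.31 and 5.12 in nab2-1 and at 6.40, 6.45 and 6.87 in the wild type, and fell by 1.39 ± 0.13, a 2.62-fold lower signal (adjusted p = 5.2e-05). The groups of SPS4 did not overlap.

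Of the 4 late genes, 2 were higher, 1 was lower and 1 was not called, against 30.2% higher and 37.2% lower among all genes. With 4 genes these counts are not read as a result about the class. DIT1 and DIT2 encode the enzymes that make dityrosine for the outermost spore wall layer. DIT1 lay at 6.58, 6.82 and 7.01 in nab2-1 and at 6.01, 5.92 and 6.07 in the wild type, and rose by 0.80 ± 0.11 (adjusted p = 0.00037). DIT2 lay at 5.90, 5.70 and 5.78 against 4.99, 4.74 and 5.05, and rose by 0.87 ± 0.09 (adjusted p = 0.00012). Both were separate between the groups. SPS100, a gene of spore wall maturation, went the other way, at 6.15, 6.60 and 6.39 in nab2-1 and 7.51, 7.81 and 7.83 in the wild type. It fell by 1.34 ± 0.13, a 2.53-fold lower signal (adjusted p = 7.1e-05). SGA1, the sporulation glucoamylase gene, had overlapping groups and a difference of -0.02 ± 0.11 (adjusted p = 0.91).

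The 2 phospholipase genes of sporulation were higher as deposited. SPO1, which is specific to meiosis, rose by 1.61 ± 0.10, or 3.04-fold, from 5.65 ± 0.14 to 7.26 ± 0.14 (SD; adjusted p = 7.4e-06). SPO14, a phospholipase D gene also expressed in growing cells, rose by 0.68 ± 0.06 (adjusted p = 5.8e-05), but its value relative to the median of chromosome XI was -0.08 (adjusted p = 0.29). The rise of SPO14 was thus no larger than that of its chromosome.

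**Figure D3:**
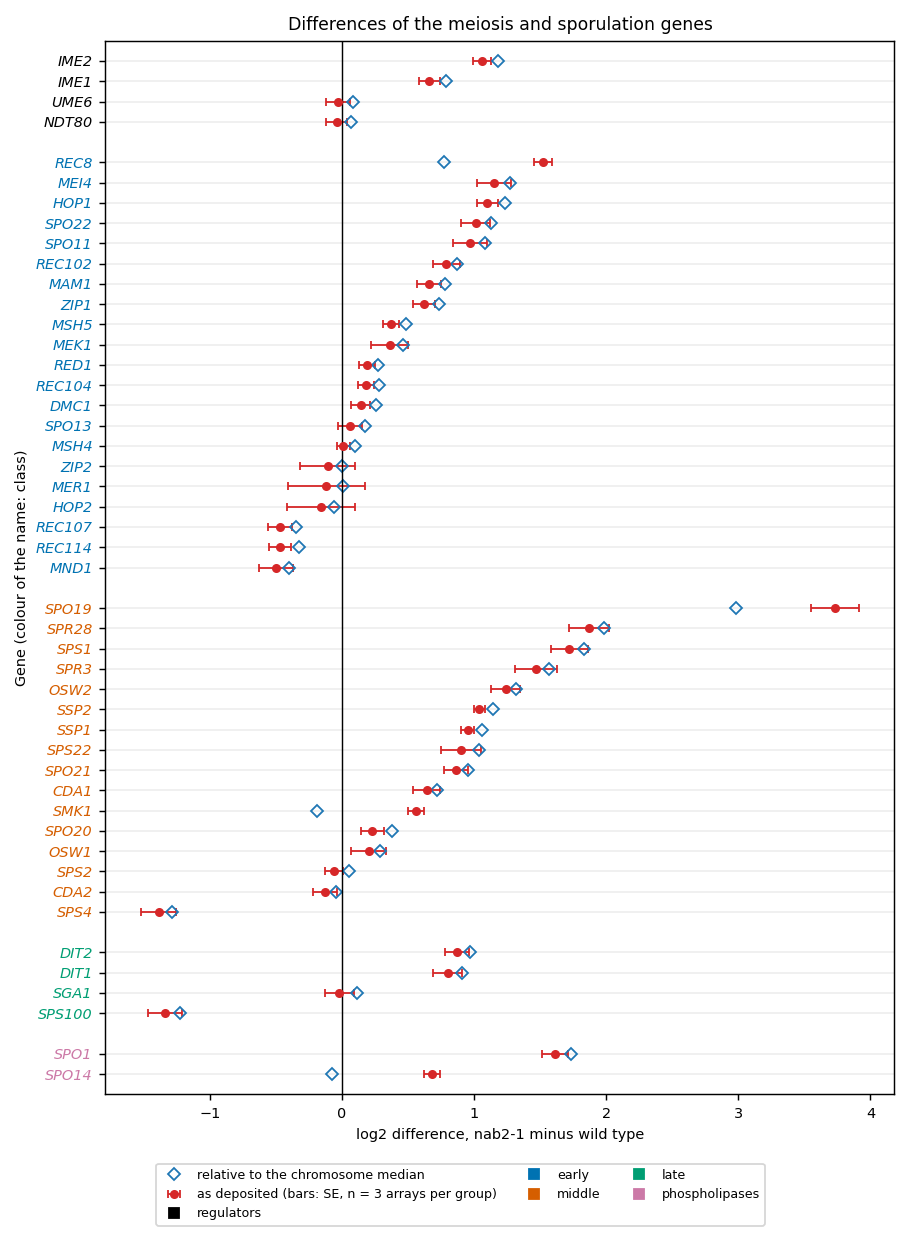
Difference of each meiosis and sporulation gene (x axis, log2, nab2-1 minus wild type), as deposited with SE bars (filled circles, n = 3 arrays per group) and relative to the median of its chromosome (open diamonds), ordered within each class. The scales differ most for REC8, SPO19, SMK1 and SPO14, the 4 genes on chromosomes XI and XVI, of which SMK1 and SPO14 change sign. NDT80, UME6, SPS2, MER1 and SGA1, not called on either scale, also change sign.

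In the order of the RefSeq gene table of assembly R64, 3 pairs of the 47 genes are direct neighbours. SPO22 and HOP1 rose by 1.01 and 1.10, and DIT1 and DIT2 by 0.80 and 0.87. In the third pair SPS1 rose by 1.72 while SPS2 was at -0.06, under the other-species level. The 28 higher genes had 44 measured neighbours outside the list, of which 16 were higher (36.4%) and 11 lower, with a median difference of -0.02. Among all genes 30.2% were higher and 37.2% lower. The measured neighbours of REC8, SPO19, SMK1 and SPO14 lie on chromosomes XVI and XI, and all were called higher. They are ICL2 (0.92), HAA1 (1.24), RPL5 (0.17), TAF14 (0.59), SEC8 (0.81) and GMH1 (0.46). The neighbour counts thus include genes of chromosomes with raised medians and were not split by chromosome. The difference from the background was not tested.

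Other genes of the pathway were counted in 4 lists. Of 10 genes of upstream control of IME1 and early meiosis, 0 were called higher and 3 lower by limma, against 30.2% and 37.2% of all genes. At 1.5-fold or more only RME1 was called, beside 821 higher and 669 lower of all 5449 genes. RME1 lay at 10.89, 10.95 and 10.80 in nab2-1 and at 11.82, 11.93 and 11.79 in the wild type, and fell by 0.96 ± 0.06, a 1.95-fold lower signal (adjusted p = 9.7e-06). The groups of RME1 were separate, and its direction was opposite to that of IME1. IDS2, which modulates the kinase Ime2, fell by 0.53 ± 0.07 (adjusted p = 0.0005) as deposited. When scaled to the spiked controls it was at -0.25 ± 0.15 and not called (adjusted p = 0.14). MUM2, a gene of the mRNA methylation complex, fell by 0.23 ± 0.05 (adjusted p = 0.0029) as deposited but was at 0.04 when scaled to the spiked controls. When scaled in that way 3 genes of this list were higher and 1 lower, beside 2133 higher and 621 lower of all 5449 genes.

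Of 16 genes of repressor complexes, 3 rose and 4 fell, against 30.2% higher and 37.2% lower among all genes. The median difference of -0.05 was the same as over all genes. With spiked-control scaling 6 of the 16 were higher and 0 lower by limma, so that none of the 4 falls was called. Among all 5449 genes, 2133 were higher and 621 lower on that scale. HST1, the deacetylase gene of the Sum1 complex that holds middle genes off, fell by 0.56 ± 0.06 (adjusted p = 8.8e-05). With spiked-control scaling HST1 was at -0.29 ± 0.15 and not called (adjusted p = 0.095). SUM1 had a difference of -0.08 ± 0.14 (adjusted p = 0.61). SET3, a histone deacetylase complex gene, rose by 1.10 ± 0.07 (adjusted p = 8.8e-06), or 0.34 relative to the median of chromosome XI. UME1, a subunit gene of the Rpd3 complex, rose by 0.77 ± 0.04 (adjusted p = 6e-06) but was at 0.02 relative to chromosome XVI. RPD3, the deacetylase gene that Ume6 recruits through Sin3, fell by 0.33 ± 0.05 (adjusted p = 0.001). With spiked-control scaling RPD3 was at -0.06 ± 0.15 and not called (adjusted p = 0.77). SIN3 had a difference of -0.15 ± 0.06 (adjusted p = 0.058). HOS4 of the Set3 complex fell by 0.46 ± 0.17 (adjusted p = 0.048) with overlapping groups, and its call was lost without nab2-1 replicate 1 or 3 or wild type replicate 1 or 2 (adjusted p = 0.093 to 0.14).

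Of 11 other early genes 10 were measured, and 3 were higher, 1 lower and 6 not called. Among all genes 30.2% were higher and 37.2% lower, so the share of higher genes in this list was near that of all genes. HFM1, the Mer3 helicase gene of crossover formation, rose by 1.23 ± 0.06, or 2.34-fold (adjusted p = 3.3e-06), and the telomere protein gene NDJ1 by 0.49 ± 0.08 (adjusted p = 0.0011). SPO16, which acts with Zip2 and Zip4, fell by 0.73 ± 0.09 (adjusted p = 0.00022). CSM4, which acts in telomere-led chromosome movement, was at least 1.41-fold higher (adjusted p = 0.0085), with its 3 wild type values at or under the other-species level, and was at 0.10 relative to chromosome XVI.

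Of 34 other middle and spore genes, 20 were higher, 6 lower and 8 not called, with a median of 0.36, against 30.2% higher and 37.2% lower among all genes. With spiked-control scaling the list held 24 higher and 3 lower genes, beside 2133 higher and 621 lower of all 5449 genes. The count of higher genes includes PFS1, although all 6 of its values were under the other-species level, so no fold is given for it. PES4, an RNA-binding protein gene, rose by 1.68 ± 0.14, or 3.21-fold (adjusted p = 3.3e-05). SMA1, needed for spore membrane assembly, rose by 1.61 ± 0.06 (adjusted p = 1.4e-06), or 0.86 relative to chromosome XVI. IRC18, also known as OSW6 and needed for the outer spore wall, rose by 1.09 ± 0.16 (adjusted p = 0.00057), and CRR1, a spore wall glycosidase gene, by 0.97 ± 0.09 (adjusted p = 4.5e-05). These genes were members of the same functional classes as the middle genes above, and their list was chosen with earlier results of these data known.

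**Figure D4:**
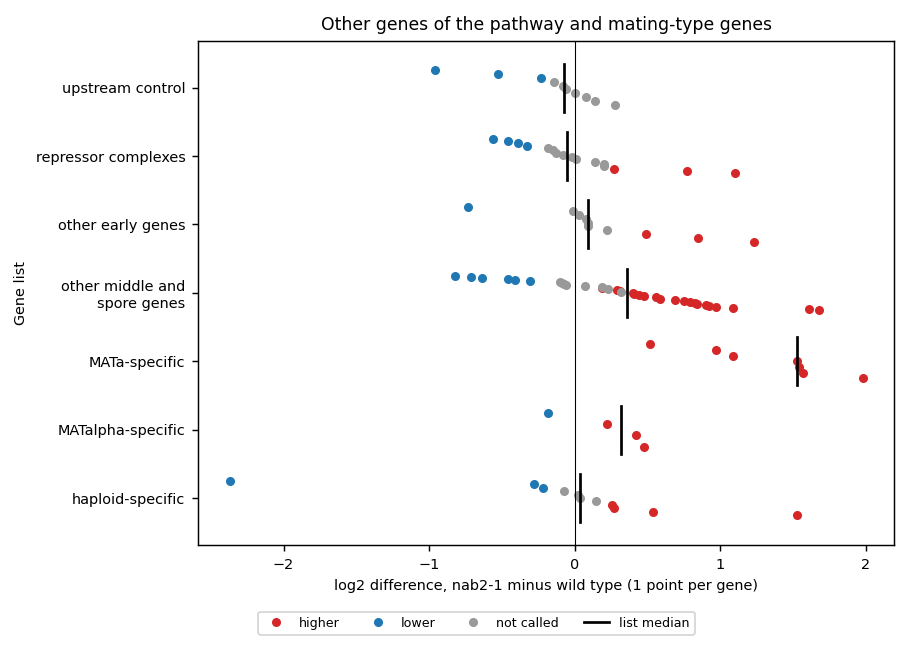
Difference of each gene (x axis, log2, nab2-1 minus wild type) in 4 lists of other meiotic genes and 3 lists of mating-type genes (y axis), coloured by whether it was called higher, lower or neither; black bars are list medians. The other middle and spore genes have 20 of 34 points called higher, and upstream control has 0 of 10, where 30.2% of all genes were called higher.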

How the data were processed

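The authors deposited 1 log2 value per probe set and array for 10928 probe sets. GCOS, RMA and limma are named in the submitters' processing notes, without version or role, and the array label protocol began from 1 ug of total RNA. Values were used as deposited, without detection calls. Probe sets with 1 Saccharomyces cerevisiae gene in the platform annotation (5498) were updated through the RefSeq gene table and reduced to the highest-mean probe set per gene, which left 5449 genes. All 47 listed genes matched, each with 1 probe set. Chromosomes were read from systematic names.

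The test was limma's moderated one (version 3.58.1, R 4.3.3), two-sided and fitted to all 5449 genes, whose p-values were adjusted by Benjamini and Hochberg's method. The number of arrays limits the precision. A gene at or under the other-species level (95th percentile on each array) on all 3 arrays of a group has a bound there. The script was checked on simulated data. The alternatives were other scalings, chromosome medians, other variance models, array weights, a replicate block, filters on dim genes, other thresholds and each array left out. The 47 genes and the other lists were chosen with earlier results of these data known. Values per array are given for the regulators and RME1. They are also given for up to 6 called genes per time class with separate groups and the largest differences. Of the other lists up to 4 genes with the largest called differences are named. SUM1, SIN3, RPD3, PFS1, LDS1, MEI5, SAE3, GMC2, SAG1 and AXL1 were named after their values were seen. The array values of MER1, STE3 and MF(ALPHA)1 were also given after they were seen. Promoter motifs were not analysed here. Python 3.11.15 and matplotlib 3.10.9 made the figures.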

Additional observations from a re-analysis of the deposited data

How the results depend on the processing

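Of the 33 genes called among the 47, 24 kept their direction and call in every one of the 22 alternatives in which they were measured. Scaling moved the rest of the counts. After quantile normalization 8 of the 47 were lower (5 early, 2 middle) and the median was 0.40, where 1977 of all 5449 genes were lower. Scaled to the spiked controls 2 were lower (0 early) with a median of 0.89, and 8 of the other early genes were called. These calls include SAE3 and GMC2, which were at or under the other-species level on every array. On that scale 2133 of all 5449 genes were higher and 621 lower. Under cyclic loess 3 middle genes were lower, and with array weights 2, where 1879 and 2127 of all 5449 genes were lower. Relative to chromosome medians the median was 0.48 and 2 middle genes were lower, with SMK1 at -0.19 and SPO14 at -0.08; of the other lists, LDS1 was at -0.45 and MEI5 at -0.72, but MEI5 was under the other-species level in both groups. Without the genes of I, XI and XVI, which leaves 43 of the 47, the median was 0.37, and 4 of 14 repressor genes were called. There 907 of 4642 genes were higher and 1986 lower. Quantile normalization turned SPO13 to -0.31 and MSH4 to -0.32, and spiked scaling turned MUM2 to 0.04. At 1.5-fold or more 2 genes were lower (0 early), and 1 upstream, 2 repressor and 15 other middle and spore genes were called. At that fold 821 of all 5449 genes were higher and 669 lower. Without the dimmest 25% of genes only UME6 and SPO14 were left, with 1 higher, 0 lower, 0 regulators called and a median of 0.32. In that setting 3 of 4 other middle and spore genes were called, beside 1236 higher and 1612 lower of 4086 genes. The cause of these shifts was not tested beyond the smaller number of genes.

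With 1 array left out, 26 to 31 of the 47 were higher and 5 to 7 lower. Among all 5449 genes 1499 to 1681 were then higher and 1838 to 2012 lower. Of the middle genes 11 to 13 were higher and 1 to 2 lower (2 without nab2-1 replicate 1), and 9 to 12 early genes were higher and 3 to 4 lower. The replicate block, the replicate number as a term, gave 27 higher and 5 lower, beside 1582 and 1932 of all 5449 genes. Of the 47 it lost REC104 alone (adjusted p = 0.052). The labels share only numbers: deviations of same-numbered arrays correlated at -0.191, 0.192 and -0.144. Promoter motifs were planned and not run. Dim signal limits most of these genes, and no detection calls were used.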
